A study of Mus musculus with 12 samples.

Results

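Binding of the glucocorticoid receptor (GR) to DNA was compared between cells given TNF and then dexamethasone (Dex) and cells given TNF alone, which shows what Dex did to GR binding once the cells had met TNF. The comparison was set by treatment labels and used 5 of the 12 samples of the series, 3 TNFDEX libraries and 2 TNF libraries. All came from BWTG3, a mouse hepatoma line, by chromatin immunoprecipitation with an anti-GR antibody and sequencing (ChIP-seq). Every culture was first kept for 24 h in serum-free medium. TNF cells received 1000 U/ml of recombinant TNF, and TNFDEX cells received the same TNF 1 h before 1 µM Dex, with 3 h of stimulation in total. The labels do not say whether Dex itself acted as long in TNFDEX as in DEX cells, which holds for every value of these groups set side by side below. The libraries DEX (1 µM Dex, n = 3) and NI (named for neither agent, n = 3) are used only where stated. The design text calls the replicates biological, all are of a single cell line, and gene expression was not measured here.

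GR is a nuclear receptor held in the cytoplasm by chaperones until a glucocorticoid such as Dex binds it. It then enters the nucleus and binds glucocorticoid response elements, which are inverted repeats of a short motif, or joins other factors already on DNA. In the liver GR drives genes of metabolism and of its own feedback. TNF is an inflammatory cytokine that activates NF-kB and AP-1, and glucocorticoids are used to restrain the genes these factors induce.

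Peaks of the 5 lists that shared at least 1 bp were merged into 34107 regions, of which the median spanned 173 bp. Regions called in 3 of 3 TNFDEX and 0 of 2 TNF libraries are named gained below, those with the opposite pattern lost, and those called in all 5 shared. Signal is given as the authors' normalized tag count, which is tags in a peak per 20000000 tags of the library. A library without a call has no value, so its level there is unknown. All coordinates are mm10, and distances are to spans of protein-coding genes.

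The promoters at gained regions carry the plainest sequence record of the comparison. Of 32851 promoter windows, each from 250 bases before to 50 after a RefSeq start (GRCm38.p6, the same coordinates as mm10), 91 or 0.277% overlapped a gained region. The GR element was searched as GNACA, then any 3 bases, then TGTNC, which reads the same on both strands. It stood in 18 of these 91 windows (19.8%) and in 0.475% of all windows. The 6 of the 18 with the strongest regions are printed 5′ to 3′ on the strand of the gene, with the GR element in capitals.
Gm6093: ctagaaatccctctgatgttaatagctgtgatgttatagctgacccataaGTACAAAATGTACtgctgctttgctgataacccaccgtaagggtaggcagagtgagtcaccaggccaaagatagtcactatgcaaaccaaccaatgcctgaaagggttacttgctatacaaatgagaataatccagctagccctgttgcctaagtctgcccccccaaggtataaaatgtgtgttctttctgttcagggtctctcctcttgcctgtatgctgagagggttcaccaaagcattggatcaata
Atp6v0a4: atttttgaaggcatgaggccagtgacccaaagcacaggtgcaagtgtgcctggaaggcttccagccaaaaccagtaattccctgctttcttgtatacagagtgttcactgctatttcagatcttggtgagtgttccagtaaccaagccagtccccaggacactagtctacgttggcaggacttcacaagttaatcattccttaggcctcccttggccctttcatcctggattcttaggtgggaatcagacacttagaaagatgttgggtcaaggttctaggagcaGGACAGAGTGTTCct
Map3k6: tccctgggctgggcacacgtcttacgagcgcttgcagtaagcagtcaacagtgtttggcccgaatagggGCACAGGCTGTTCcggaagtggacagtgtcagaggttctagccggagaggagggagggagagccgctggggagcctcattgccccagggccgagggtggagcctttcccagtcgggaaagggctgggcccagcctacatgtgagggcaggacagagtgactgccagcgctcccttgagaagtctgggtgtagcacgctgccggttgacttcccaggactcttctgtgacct
Mt1: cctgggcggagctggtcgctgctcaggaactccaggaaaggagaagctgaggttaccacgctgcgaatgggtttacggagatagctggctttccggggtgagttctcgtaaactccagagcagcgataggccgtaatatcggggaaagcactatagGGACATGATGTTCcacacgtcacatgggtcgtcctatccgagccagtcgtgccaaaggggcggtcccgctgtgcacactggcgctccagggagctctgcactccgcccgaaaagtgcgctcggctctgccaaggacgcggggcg
Slc10a6: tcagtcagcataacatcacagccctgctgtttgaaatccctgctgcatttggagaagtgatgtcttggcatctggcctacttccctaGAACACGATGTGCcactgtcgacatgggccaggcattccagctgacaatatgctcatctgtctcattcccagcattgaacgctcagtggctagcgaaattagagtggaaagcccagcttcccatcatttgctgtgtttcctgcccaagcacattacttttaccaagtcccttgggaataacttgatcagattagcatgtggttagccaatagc
Gm35268: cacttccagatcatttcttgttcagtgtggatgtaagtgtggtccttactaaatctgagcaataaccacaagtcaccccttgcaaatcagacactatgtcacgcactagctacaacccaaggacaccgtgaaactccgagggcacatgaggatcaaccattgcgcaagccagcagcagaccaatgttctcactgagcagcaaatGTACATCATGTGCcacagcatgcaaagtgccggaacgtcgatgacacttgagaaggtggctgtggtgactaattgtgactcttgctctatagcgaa
Gm6093 and Gm35268 are predicted genes (chr13:33569268-33569567, minus strand, and chr19:27312625-27312924, plus strand). Atp6v0a4 encodes a subunit of the proton pump of vesicles (chr6:38124537-38124836, minus strand), and Map3k6 a stress-activated kinase (chr4:133240568-133240867, plus strand). Mt1 encodes the metal-binding protein metallothionein 1 (chr8:94178839-94179138, plus strand), and Slc10a6 a transporter of sulphated steroids (chr5:103629354-103629653, minus strand). In all 6 windows the element lay inside the region, with its middle 1 to 27 bases from the region's centre. At Mt1 the element GGACATGATGTTC began 94 bases before the start, 1 base from the centre of a region (chr8:94178912-94179088) with values of 62.2, 50.4 and 123.4 in TNFDEX 1, 2 and 3. The values at the Gm6093 window were 134.4, 73.1 and 162.4, and at the Slc10a6 window 90, 45.8 and 91.7. None of the 6 regions was called in a TNF or an NI library, and all 6 were called in 3 of 3 DEX libraries.

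Several windows shared 1 region, so regions were counted as well. At a promoter lay 81 gained regions, and 17 of them (21.0%) had the element in a window, in 16 cases with its middle within 30 bases of the region's centre. Of 107 regions at a promoter that were called in both TNF libraries, 0 had it in a window. Among the 634 called in TNF but in no TNFDEX library, 1 had it. Other promoter regions bound with Dex had it less often than gained ones. It was in 1 of 44 (2.27%) called in 3 TNFDEX and 1 TNF library. Of those called in 1 TNFDEX library alone, 6 of 717 (0.837%) had it. Since 0.475% of all windows held the element, sets of 107 or 44 regions are too small to show it as absent or rare. Other motifs were also more frequent in the 91 windows than over all windows. The single arm AGAACA, which can overlap the full element, was in 33.0% against 19.0%, the C/EBP motif TTGCNNAA in 23.1% against 10.8%, the AP-1 motif TGANTCA in 15.4% against 7.81% and the FOXA motif TGTTTAC in 14.3% against 3.65%. Counted once per gained region, since some windows repeat the same bases, these 4 stood in 28, 20, 10 and 9 of 81 regions (34.6%, 24.7%, 12.3% and 11.1%). The NF-kB motif, GGGAN followed directly by TTTCC, was in 0 of the 91 and in 0.411% of all windows. With so small a share over all windows, 0 of 91 does not show that the motif was depleted. Each motif was searched on both strands, and a match shows only that the letters are there.

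A larger share of tags lay in GR peaks with Dex, although the 2 groups did not separate in peak number. TNFDEX 1, 2 and 3 held 22590, 8641 and 14043 peaks, and TNF 1 and 2 held 8943 and 4132. TNFDEX 2 lay just below TNF 1, so the groups overlapped. The means were 15091 ± 7033 (SD, n = 3) and 6538 ± 3402 (n = 2), a 2.30-fold difference (exact two-sided permutation p = 0.4). With 3 libraries against 2 the smallest p is 0.2, so no such comparison could pass 0.05. The share of all tags inside nuclear peaks separated the groups, with 2.91%, 0.847% and 1.94% in TNFDEX against 0.722% and 0.179% in TNF (4.68-fold, exact permutation p = 0.2). The strongest peaks stood apart most. Peaks of at least 100 normalized tags numbered 647, 152 and 554 with Dex and 28 and 0 without, and the highest nuclear peak of a TNF library reached 238.3 against 610.5 to 1157.9.

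Depth and mitochondrial signal differed between libraries. TNFDEX libraries had 48225044 to 51141996 tags and TNF libraries 39452055 and 43579727. Tags in mitochondrial peaks were 0.0191% and 0.0348% of the total in TNFDEX 1 and TNF 1 and 0.355%, 0.541% and 0.468% in TNFDEX 2, TNFDEX 3 and TNF 2. The labels name no batch, but the split crosses the treatments, so values were also taken within it. Peak numbers were 2.53-fold higher with Dex among the low-share libraries and 2.67-fold among the high-share ones, and the share of tags in nuclear peaks 4.03-fold and 7.15-fold. The header of TNF 1 also caps tags at 1 per position against 2 in the other 4. The part of these differences in the results was not tested beyond the values given here.

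**Figure D1:**
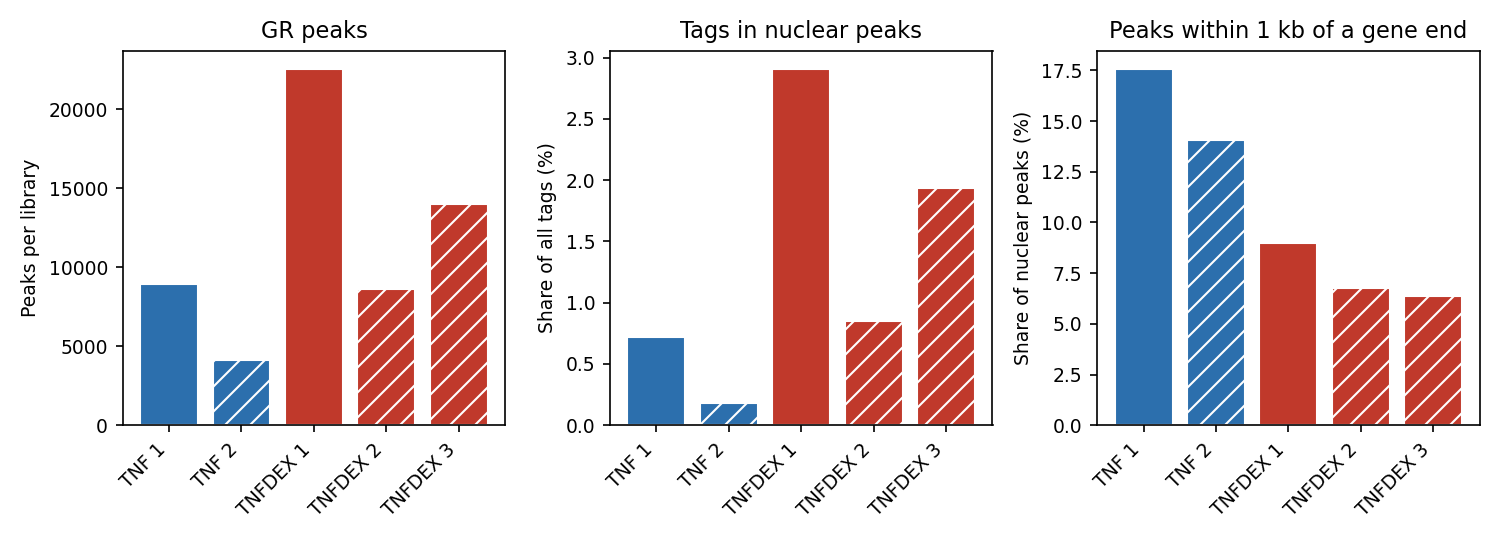
Number of GR peaks, share of all tags inside nuclear peaks and share of nuclear peaks within 1 kb of a gene end, per library (blue TNF, red TNFDEX). Hatching marks the 3 libraries with the higher mitochondrial share. TNFDEX 2 holds about as many peaks as TNF 1, with 8641 against 8943, but all 3 TNFDEX libraries lie below both TNF libraries in the share near gene ends.

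Where peaks lay also differed. Within 1 kb of a gene end were 8.96%, 6.75% and 6.37% of the nuclear peaks of TNFDEX 1, 2 and 3, against 17.6% and 14.1% in TNF 1 and 2. The groups did not overlap, and the difference was −8.47 percentage points (exact permutation p = 0.2), with −8.63 and −7.51 within the low and high mitochondrial shares. Peaks inside genes made up 44.4% ± 0.121 (n = 3) against 48.4% ± 1.77 (n = 2). Over 50 kb from any gene lay 27.2% ± 0.465 against 24.9% ± 0.788, a difference of 2.26 points. That direction turned to −3.43 points when only peaks of at least 20 normalized tags were kept.

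Gained regions outnumbered lost ones by far. There were 3964 gained regions, 11.6% of all 34107, and 80 lost regions, 0.235%. Another 498 regions were shared, and 1298 were called in all 3 TNFDEX and 1 TNF library. Calls in a single library were many, with 14076 regions in 1 TNFDEX library alone, 9188 of them in TNFDEX 1, and 5882 in 1 TNF library alone. Without TNFDEX 2, the library with the fewest peaks of its group, 7209 regions were gained, and with each library cut to its 4132 strongest peaks 1775 were gained and 234 lost. The lost count was 196 without TNFDEX 1, 3119 without TNF 1 and 2928 without TNF 2, since a single TNF library then had to hold the call. Pairs of libraries with like mitochondrial share gave the same order. TNFDEX 1 had 16740 regions that TNF 1 lacked against 3091 the other way, TNFDEX 2 had 8066 against 3557 in TNF 2, and TNFDEX 3 had 13263 against 3352.

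**Figure D2:**
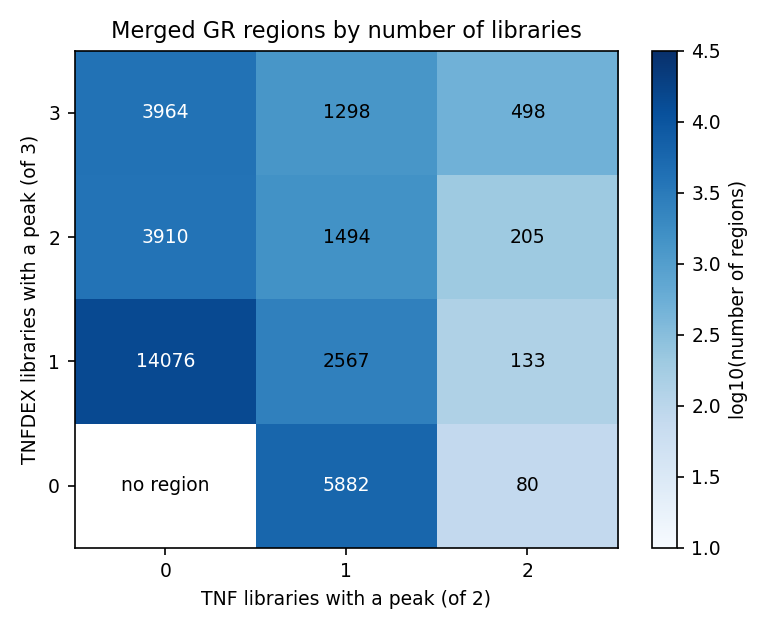
Number of merged regions by how many TNF libraries (x axis, of 2) and how many TNFDEX libraries (y axis, of 3) had a peak there, with colour on a log10 scale. The upper left cell holds the 3964 gained regions, the lower right cell the 80 lost ones, and the upper right cell the 498 shared ones.

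Dex-bound regions without a TNF call were found at every strength. Among regions called in all 3 TNFDEX libraries, the share without a TNF call was 81.5% for means under 15 normalized tags, 61.9% between 25 and 50, and 74.3% (78 of 105) at 200 or more. Seen from TNF, the overlap was higher for stronger regions. Of the 916 regions called in both TNF libraries, 498 (54.4%) were called in all 3 TNFDEX libraries, from 15.3% of those under 10 normalized tags to 91.3% (42 of 46) of those at 50 or more. TNF 1 shared 67.3% of its regions with some TNFDEX library and TNF 2 shared 24.6%.

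The strongest gained region lay inside Zbtb16, which encodes a transcriptional repressor induced by glucocorticoids (chr9:48723706-48723882). Its values were 737.8, 610.5 and 1157.9 in TNFDEX 1, 2 and 3, with no call in TNF. The next lay 3.8 kb from the predicted gene Gm33049 (chr15:88850581-88850760) and held 853.1, 435.3 and 863. A region inside Cblb, which encodes a ubiquitin ligase of immune signalling (chr16:52094751-52094929), held 575.6, 463 and 870.9. In all 3 of these regions TNFDEX 3 was highest and TNFDEX 2 lowest, and every value exceeded the highest nuclear peak of both TNF lists.

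The other 7 of the 10 strongest ranged in mean from 535 to 629. They lay 33.1 kb from Slc45a1, 55.6 kb from Eif3h, inside Hmcn2, inside Nek7, 19.4 kb from Rab4a, and at 2 places 12.7 and 17.9 kb from Armc12. The Hmcn2 region (chr2:31460394-31460570) lies 9.8 kb from Ass1, a urea cycle enzyme gene, and held 437.5, 426.3 and 859.3. The Armc12 pair also lies 32.0 and 26.8 kb from Fkbp5. Each of the 10 had a call in all 3 DEX libraries and in no NI library. The Eif3h region (chr15:51730849-51731025) had a mean of 595 ± 174 in TNFDEX and 246 ± 63.6 in DEX, while the Zbtb16 region had 835 ± 286 and 771 ± 354.

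Some genes had many gained regions. Fkbp5, Tsc22d3 and Zbtb16 each had 9 within 50 kb, the most of any of 21887 protein-coding genes, and Ddit4, Foxp1 and Rad51b had 7 each. Of the 3964 gained regions 15.1% had another gained region within 10 kb. Of all 5760 regions called in 3 TNFDEX libraries 22.3% had another such region that close. The larger set holds the gained regions and is denser for that reason alone, so these shares do not show which set was more crowded. Zbtb16, Foxp1 and Rad51b span 184, 597 and 551 kb, which widens the window searched, whereas Ddit4 spans 2.10 kb. Fkbp5 encodes a cochaperone that lowers the affinity of GR for hormone. The 5 regions 26.8 to 37.0 kb from it had values of 102.9 to 699.8 over the TNFDEX libraries, and 4 inside the gene had 17.6 to 161.3. TNF 2 had 2 peaks of 7.3 and 8.7 within 50 kb of Fkbp5, neither at a gained region. Tsc22d3 encodes GILZ, an anti-inflammatory leucine zipper protein. Its 9 regions were weaker, with means of 9.90 to 62.7. For Ddit4, an inhibitor of growth signalling, the strongest region (chr10:59921304-59921485) lay 28.3 kb away and nearer to Dnajb12. It held 303.2, 213.9 and 389.4.

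**Figure D3:**
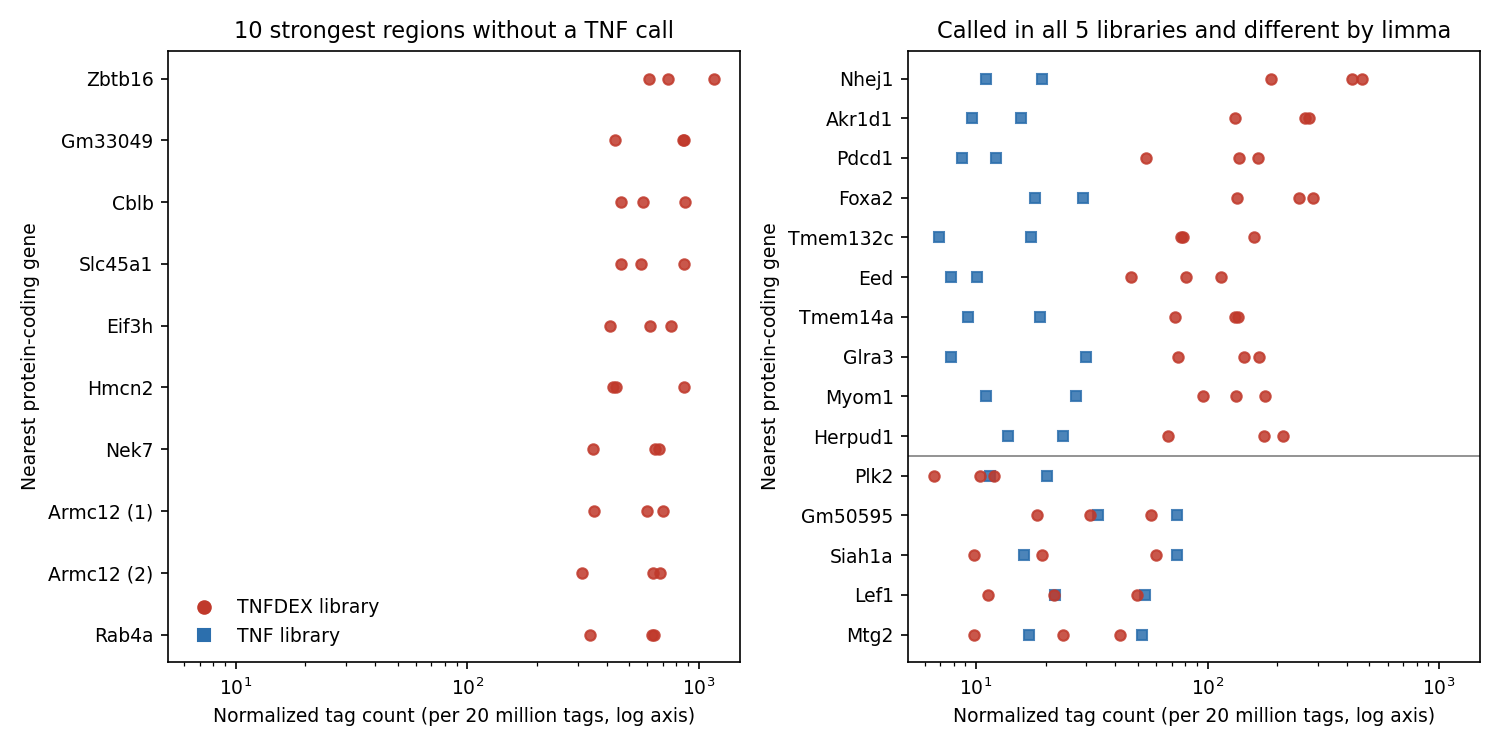
Normalized tag count per library on a log axis at the 10 strongest gained regions (left) and at shared regions that differed by limma (right, the 10 largest rises above the line and the 5 that fell below it). Red circles are TNFDEX and blue squares TNF libraries. On the left no blue square exists because no TNF library had a call. At the upper 10 regions on the right every red circle lies to the right of both blue squares, while below the line the unscaled values overlap. Those 10 were chosen for large rises with non-overlapping scaled values, which largely sets their separation.

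Genes of the glucocorticoid response carried gained regions most often. Of 30 genes on that list 23 (76.7%) had one within 50 kb, against 19.3% of all protein-coding genes, with a median of 2 per gene against 0. Counted by length, the windows of these genes held 18.7 gained regions per Mb against 1.73 for all genes. At Zfp36, which encodes an RNA-binding protein that destroys cytokine transcripts, a region 0.3 kb away (chr7:28376419-28376610) held 468.6, 247.5 and 507.8. A region inside Cdkn1a, a cell cycle inhibitor gene, held 348, 201.8 and 396. The region 5.0 kb from Sgk1, a kinase gene of salt and growth control, held 130.6, 101.7 and 198.2. Both regions counted at Dusp1, a MAP kinase phosphatase gene, were weaker, and the stronger, 0.1 kb away, held 25.3, 24.2 and 46.1. Within Bcl2l1, the gene of the anti-apoptotic protein Bcl-xL, a region of 848.9, 471.6 and 811.2 was not gained by the rule because TNF 1 had a peak of 16.7 there. All 3 TNFDEX values lay far above that single TNF value.

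Liver genes also had gained regions more often than all genes. In the hepatocyte identity list 16 of 24 genes (66.7%) and in the liver metabolism list 12 of 24 (50.0%) had a gained region, at 8.18 and 5.62 regions per Mb. Within 10 kb the counts were 5 (20.8%) and 9 (37.5%) of 24, against 8.99% of all genes, so most hepatocyte identity genes had theirs farther away. Some neighbours share a region, such as Krt8 with Krt18 and Apoa1 with Apoc3, so these genes are not independent counts. The strongest for Hnf4a, a master regulator of hepatocytes, lay 23.3 kb away and nearer to Ttpal, with 351.3, 189.3 and 427.2. Prox1, a liver transcription factor gene, had 173.8, 107.9 and 193.2. Inside Ppara, the receptor gene of fatty acid use (chr15:85776821-85777009), the values were 280.8, 213.5 and 354, a mean of 283 ± 70.3 (n = 3) against 85.8 ± 38.8 (n = 3) in DEX. The region inside Tat, which encodes a tyrosine-degrading enzyme and is a classic glucocorticoid target, held 76.7, 87.6 and 136.5. Igfbp1, whose product binds insulin-like growth factors, had 228.9, 56.7 and 119.2 at a region 41.3 kb away inside Adcy1. A region 3.1 kb from Igfbp1 held 119.4, 49.3 and 99.5 but was not gained by the rule, because TNF 1 had a peak of 17.7 there. No region within 50 kb of Pck1, the gluconeogenic gene, was called in all 3 TNFDEX libraries.

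Acute phase, clock and AP-1 genes were also above the share of all genes, as were the marker lists of other cell types given below (33.3% each). Of 25 acute phase genes 12 (48.0%) had a gained region, of 19 clock genes 9 (47.4%) and of 23 AP-1 and immediate early genes 9 (39.1%), at 5.11, 3.52 and 6.55 regions per Mb. The clock density was close to the 3.48 of the stromal and endothelial list, and clock genes are long, with a median of 30.4 kb. Within 10 kb the counts were 7 of 25, 5 of 19 and 3 of 23, against 8.99% of all genes. In the macrophage, stromal and endothelial, and neuronal lists they were 0, 3 and 2 of 12. Of the 12 acute phase genes 7 rest on gained regions that neighbouring genes have in common. These are 4 at the Saa locus and 3 (Fga, Fgb and Fgg) at the fibrinogen locus. Next to Lbp, which encodes a carrier of bacterial lipopolysaccharide, a region 0.4 kb away held 281.2, 208.4 and 382. The 4 Saa genes of serum amyloid A share the same gained region, which held 17.4, 26.2 and 32.5, and also a lost one inside Saal1 with 9.6 and 10.6 in TNF 1 and 2, whereas 0.914% of all genes had a lost region. Lcn2, an iron-trapping protein gene, had a weak region 0.6 kb away with 10.8, 9 and 10.3 and no DEX call. In the clock list a region inside Per1 held 338.4, 179.9 and 369.6 and one inside Cry2 183.7, 75.5 and 157.5. Both genes encode repressors of the clock. A region 27.0 kb from Myc held 254.6, 140.4 and 301.4, one inside Maff, a small basic leucine zipper factor gene, 148.1, 65.7 and 158.3, and one 22.0 kb from Fos only 18.7, 11.7 and 21.

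Targets of TNF itself had gained regions about as often as all genes. Of 32 NF-kB and TNF target genes 5 (15.6%) had a gained region against 19.3% of all genes, at 2.57 per Mb against 1.73. A region called in both TNF libraries lay within 50 kb of 2 of the 32 (6.25%) and of 6.01% of all genes. The 5 were Nfkbia, Tnfaip3, Tnfaip2, Nfkbie and Traf1, and the strongest regions were at Nfkbia and Tnfaip3, both genes of inhibitors of the pathway. Inside Nfkbia, which encodes the NF-kB inhibitor IκBα (chr12:55491890-55492093), the values were 248, 63 and 178.9. Inside Tnfaip3, which encodes the ubiquitin-editing enzyme A20 (chr10:19009400-19009583), they were 55.2, 36.8 and 66.2. In DEX the Nfkbia region was called in 3 libraries with a mean of 179 ± 22.7, whereas the Tnfaip3 region was called in 2 with 8.4 and 19.8. At the chemokine gene Cxcl1 all 3 TNFDEX libraries and TNF 1 had a peak over the gene's start (28.2, 14.5, 30.8 and 28.4), and DEX had it in 1 library. No region within 50 kb of Icam1, an adhesion molecule gene, was called in all 3 TNFDEX libraries, and none at all lay near the chemokine gene Ccl2.

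Of 18 genes for GR and its cofactors 2 (11.1%) had a gained region, against 19.3% of all genes, and 5 (27.8%) had a region called in every TNFDEX library, against 24% of all genes. The 2 were Ncoa3, a coactivator gene with 17.8, 18 and 25.5, and Hsp90ab1, a chaperone gene with 53.9, 26.2 and 44.8 at a region inside Slc29a1, which is also the region counted for Nfkbie. For Nr3c1, the GR gene, the strongest region called in all 3 TNFDEX libraries lay 39.3 kb away. It held 22, 12.5 and 17.7 in TNFDEX and 21.3 in TNF 1. A stronger region 35.8 kb away inside Arhgap26 (chr18:39374597-39374793) held 127.7 and 42.4 in TNFDEX 1 and 3. TNFDEX 2 had no call there, nor had any TNF or NI library, whereas all 3 DEX libraries had one. Markers of cells other than hepatocytes served as outside lists. In each of the macrophage, stromal and endothelial, and neuronal lists 4 of 12 genes (33.3%) had a gained region, at 2.34, 3.48 and 1.44 per Mb, and their genes are longer than most, with medians of 25.7, 38.4 and 46.4 kb against 17.2 kb. Binding near a gene does not show that the gene was expressed.

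**Figure D4:**
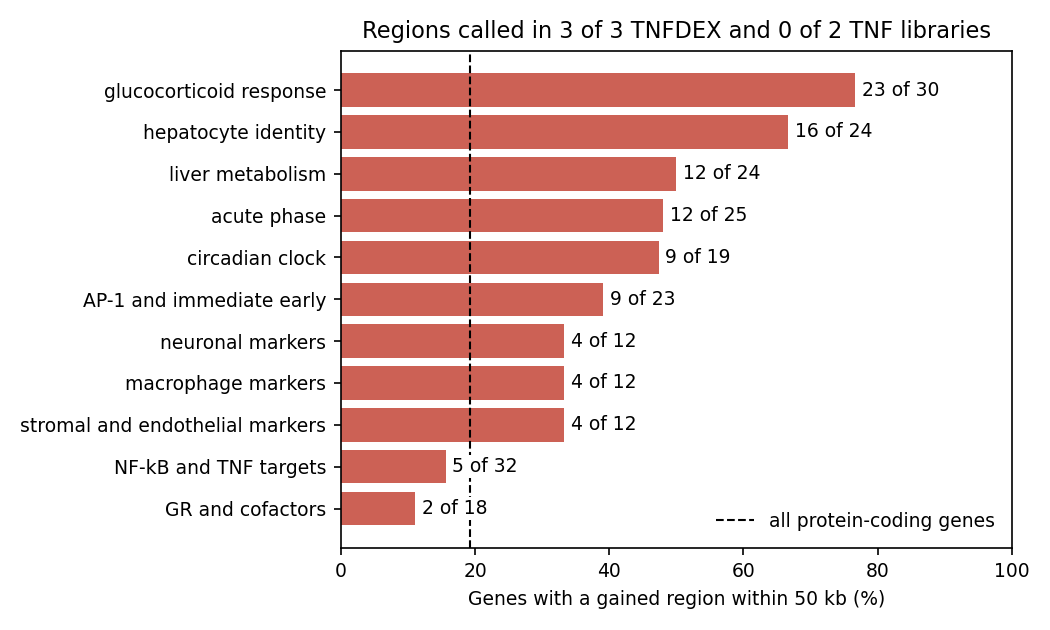
Share of the genes of each list that had a gained region within 50 kb of the gene span, with the counts beside the bars. The dashed line is the 19.3% of all protein-coding genes. The glucocorticoid response list reaches 76.7%, and NF-kB and TNF targets lie at 15.6%.

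At the 498 shared regions the signal itself could be tested. Before scaling, 416 of them were higher with Dex, with a median log2 difference of 0.55. Trimmed-mean scaling (TMM) removed this shift and left a median of −0.10, so the changes below are relative to the bulk of shared regions. By limma with Benjamini-Hochberg adjustment at 0.05, 57 regions (11.4%) rose with Dex and 5 (1%) fell. Scaled values of the groups did not overlap at 133 regions (26.7%) with TNFDEX higher and at 99 (19.9%) with TNFDEX lower, while the unscaled values did so at 96 and 0 regions. With library totals in place of TMM 7 rose and 0 fell, and 58 had an unadjusted p under 0.05. The log2 rises ran from 1.05 to 3.86. The 57 had a median of 93.4 normalized tags in TNFDEX and 18.1 in TNF, against 31.7 and 22.6 at the 436 not called. They were chosen by the difference between these values, so the wider gap follows from the choice. All 57 were called in 3 of 3 DEX libraries, as were 93.1% of those not called, and 13 (22.8%) lay over 50 kb from any gene, against 37.8% of those not called.

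The largest rise was inside Nhej1, a gene of DNA end joining (chr1:74971670-74971925). Its values were 418.9, 188.5 and 464.2 in TNFDEX and 19.3 and 11 in TNF (log2 3.86, SE 0.35, limma adjusted p = 3.25e-05). A region 42.8 kb from Akr1d1, which encodes a reductase of bile acid and steroid metabolism (chr6:37617507-37617984), held 264.2, 131 and 273.8 against 15.7 and 9.6 (log2 3.46, SE 0.36, limma adjusted p = 6.27e-05). Both were among the 7 that also rose with library totals. A region 210 kb from Foxa2, a liver pioneer factor gene (chr2:147832711-147832933), held 248.4, 134.1 and 284.5 against 28.9 and 17.9 (log2 2.57, limma adjusted p = 0.000825). Near Herpud1, a gene of the endoplasmic reticulum stress response, the values were 212.8, 67.7 and 174.7 against 23.8 and 13.8 (log2 2.26, limma adjusted p = 0.000946). In these 4 regions even the lowest TNFDEX value exceeded the higher TNF value. They were named for large rises with non-overlapping scaled values, so this separation was largely set by the choice. The other 6 of the 10 largest, with the nearest genes Pdcd1, Tmem132c, Eed, Tmem14a, Glra3 and Myom1, had log2 changes of 2.28 to 2.73. Not every strong region rose. Inside Skp2, a ubiquitin ligase gene of the cell cycle, TNFDEX held 264.6, 119.3 and 198.2 and TNF 194.7 and 40.8 (log2 0.40, limma adjusted p = 0.438).

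**Figure D5:**
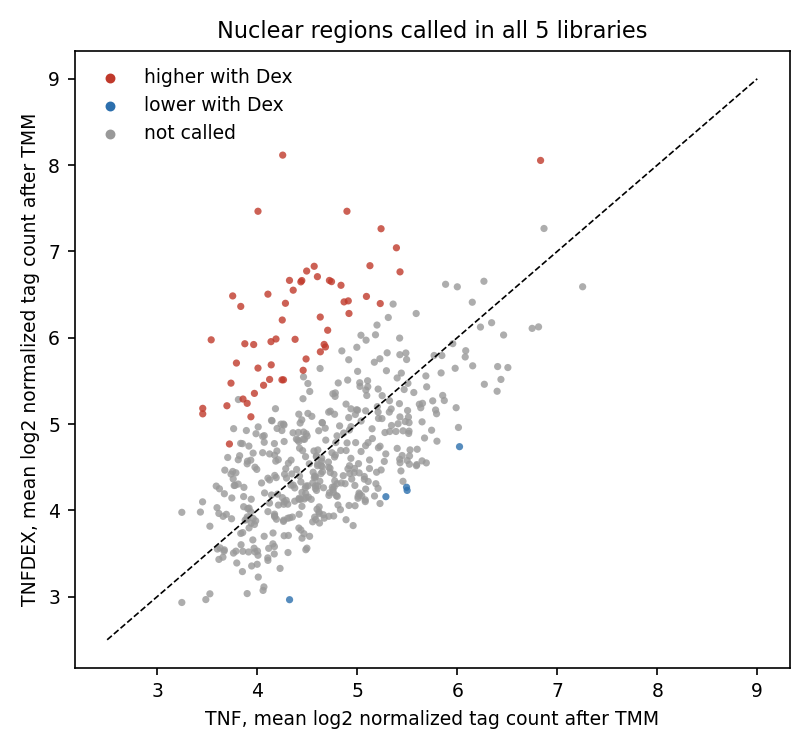
Mean log2 normalized tag count after TMM in TNF (x axis) and TNFDEX (y axis) at the 497 nuclear regions called in all 5 libraries, with equality as a dashed line. Red points rose and blue points fell by limma at an adjusted p of 0.05. The red points lie mostly where TNF is low, with 57 rises against 5 falls. Colour depends on the difference between the axes, so where the red points lie is partly set by the choice.

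The 5 regions that fell were modest. The one 0.1 kb from Plk2, a polo-like kinase gene (chr13:110394793-110395180), held 10.4, 6.6 and 11.9 in TNFDEX and 20.3 and 11.5 in TNF. Its log2 change was −1.36 (SE 0.37, limma adjusted p = 0.0266) after scaling and −0.71 without. The others lay closest to Gm50595, Siah1a and Lef1 and inside Mtg2, with log2 changes of −1.29 to −1.13. At each of the 5 the unscaled TNFDEX and TNF values overlapped, and none passed with library totals or without TNFDEX 2 or TNFDEX 3.

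The shared region 0.3 kb from Junb, an AP-1 subunit gene (chr8:84976470-84976727), did not pass. Its values were 29, 21.1 and 33.7 in TNFDEX against 25.9 and 20.7 in TNF (log2 −0.41, limma adjusted p = 0.517). The groups overlapped there, and only 1 DEX and no NI library had a call.

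Lost regions were weak. Their median was 10.2 normalized tags in TNF with a highest mean of 36.8. Within 1 kb of a gene end lay 41.3% of them, against 4.19% of the gained and 11.3% of all regions. Other TNF regions were also often there, with 20.3% of those called in 1 TNF library only. Of all regions called in both TNF libraries, it was 28.8% under 10 normalized tags and 26.5% from 10 to 15. The strongest lay inside Macrod2 (chr2:140842308-140842524) with 59.8 and 13.8 in TNF 1 and 2, and the next inside Polr3b, a gene of RNA polymerase III, with 46.1 and 16.1. Neither was called in DEX, but 2 and 3 NI libraries had them. The region 1.7 kb from Fam20c, a secreted kinase gene, held 15.2 and 34.4 and had no DEX or NI call. Only 2 of the 80 were called in all 3 DEX libraries and 56 (70%) were in none, against 55.5% of all regions, while 43 (53.8%) were called in some NI library, against 13.8% of all regions. With peaks of at least 20 normalized tags, 0 regions were lost and 1700 gained. A peak of 82.6 lay 0.1 kb from the chemokine gene Ccl20 (chr1:83116548-83116694) in TNF 1 only, without a call in TNF 2 or in any TNFDEX, DEX or NI library. A second region 0.9 kb from Ccl20 (chr1:83119969-83120152) was called in TNFDEX 1 at 82.1, TNF 1 at 33.5 and 1 DEX library at 52.5. Stronger peaks of TNF 1 without a TNFDEX call lay 282 kb from Pex2 (238.3), inside Lars2 (112.5) and 11.1 kb from Apbb1ip (100.4), and NI 1 had 286.7, 122.8 and 97.1 there. These regions were chosen after their values were seen.

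The regions gained on top of TNF were mostly known from Dex without TNF. Of the 3964, 2478 (62.5%) were called in 3 of 3 DEX libraries and 3751 (94.6%) in at least 1, and 3870 (97.6%) were called in no NI library. Over all 34107 regions these shares were 16.5%, 44.5% and 86.2%. Of all 5760 regions called in 3 TNFDEX libraries, whatever TNF held, 69.5% were called in 3 DEX libraries. DEX and NI libraries took no part in choosing them. Called in no DEX library were 213 (5.37%). Led by strength these lay 167 kb from Gm50595 (49.4, 57.1 and 89.6), 10.2 kb from Coa7 (61, 41.1 and 70.7), inside Ptprr, a tyrosine phosphatase gene (49.8, 45.8 and 75.7), inside Parva, and 185 kb from Dusp10. DEX and NI were compared at 373 of the 387 shared regions called in at least 2 NI libraries. The 33 that rose had a median log2 ratio of DEX to NI of 2.62 before scaling. The 4 that fell had −0.37 and the 336 not called 0.69. The fallen region near Lef1, called in 2 DEX libraries, was not among the 373. Of the 498 shared regions, 473 were called in at least 1 NI library and 118 in all 3.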

How the data were processed

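GR ChIP-seq peak lists of 5 libraries were used, with those of DEX and NI beside them. CASAVA 1.8, Bowtie 1.0.0 and HOMER 4.6 with mm10 are named in the submitters' processing notes. Per the file headers, the authors called peaks in each library on its own against an input. A peak needed a false discovery rate below 0.001 and a 4-fold excess over the input and over 10000 bp around it. How duplicates were handled is not given in the sources used here. The deposited signal is the normalized tag count per 20000000 tags, the deposited ratios are folds over input and surroundings, and the deposited fraction is the focus ratio. Tags were counted in each library's own peak window, so no count model was run.

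Peaks sharing at least 1 bp were merged, and the largest peak per library was taken. Limma 3.58.1 in R 4.3.3 was run on log2 normalized tag counts of regions called in all 5 libraries, after TMM (30% trimmed on M, 5% on A). No pseudocount was needed. On simulated data it recovered 82.0% of 2-fold and 100% of 4-fold changes among 498 regions and called 2.01% of unchanged ones. The simulation gave all regions the same spread, used independent noise and had as many rises as falls. In the data 416 of the 498 regions were higher with Dex before scaling, so these rates need not hold for the regions called here. Library values had exact two-sided permutation tests. Weak peaks hold few tags, with 14 to 17 tags as the calling minimum of a library, so they carry a large counting error. Gene spans came from a GRCm38.p6 table without strand or exons, so exons and introns were not separated. Of 231 entries in 11 gene lists, 1 was matched by a synonym.

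Named regions were the 10 strongest gained, 5 strongest lost, 10 largest rises and 5 largest falls by limma with non-overlapping scaled values, the strongest region at the top genes of each list and at a set of genes given whatever their values, and 6 promoters with a GR element. The strongest region at a gene was taken among those called in all 3 TNFDEX libraries. The members and lists were chosen with earlier results of these data known. Other steps used Python 3.11.15 with scipy 1.17.1, pandas 2.3.3 and numpy 2.4.6, and figures matplotlib 3.10.9.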

Additional observations from a re-analysis of the deposited data

How the results depend on the processing

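The excess of gained over lost regions kept its direction under every alternative run, but the counts moved. Gained regions numbered 1700 with peaks of at least 20 normalized tags, 1775 with the same number of strongest peaks per library, 7874 when 2 of 3 TNFDEX libraries sufficed, and 3981 to 7209 with 1 library left out. Lost regions numbered 0, 234 and 213 under the first 3 of these, 39 with peaks at least 8-fold over the input, and 84 to 3119 with 1 library left out. The share of peaks over 50 kb from a gene changed sign to −3.43 points with peaks of at least 20 normalized tags. The cause was not tested. The log2 ratio of peak numbers was 0.65 to 1.76 with 1 library left out. Within 10 kb in place of 50 kb, 57 in place of 96 list genes had a gained region, since the window was smaller.

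In the limma test, library totals gave 7 rises and 0 falls, a mean of at least 20 normalized tags gave 12 falls, and the mitochondrial share as a term gave 97 rises and 73 falls. With 1 library left out, rises numbered 26 to 74 and falls 0 to 55, and a lone TNF library was then assumed to vary like TNFDEX. With nuclear regions only, an alternative chosen after seeing the data, 60 rose and 5 fell. All 57 rises remained with the mitochondrial term, and 52 to 54 remained without TNFDEX 1, TNF 1 or TNF 2, 33 without TNFDEX 2 and 26 without TNFDEX 3.

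With the replicate number as a block, 67 regions rose and 22 fell. The numbers were not taken to pair the libraries, since the labels give them no meaning and only 2 pairs exist, with correlations of deviations of 0.512 and 0.453.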
